A study of Homo sapiens with 6 samples.

Results

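The ETS family of transcription factors was examined in A375 cells, an established human melanoma cell line, through ETV1, ETV4 and ETV5 (the PEA3 group) and their relatives ETS1, ETS2, ELK1, ELK3, ELF1, ERF and ETV6. Each gene was taken from the probe sets naming exactly 1 gene symbol, with 1 probe set per gene (the one with the highest mean over the arrays). By that rule 9 of the 10 listed genes were measured, out of 18417 genes in all. The probe set naming ETV6 also names INO80D, so ETV6 was not analysed here. One group of cells received 10 µM vemurafenib, a small-molecule kinase inhibitor developed for melanoma, for 24 h, and the other received the vehicle (0.1% DMSO) for the same time. Each group held 3 arrays, prepared from separate cell stocks on separate days, and all came from this 1 line.

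ETS factors share a DNA-binding domain, the ETS domain, that reads a short core sequence in promoters and enhancers. Many are direct endpoints of growth factor signalling: the kinase ERK, last in the RAS, RAF, MEK and ERK chain, phosphorylates several of them and changes their activity or place in the cell. The genes of the PEA3 group are also switched by the chain itself, because the repressor CIC, which holds them down, leaves DNA when ERK is active. The comparison asked how the RNA of these factors, of their regulators and of their reported targets differed between vemurafenib and vehicle.

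Levels are the deposited log2 values, which ran from 2.67 to 14.56 with array medians of 7.69 to 7.73. Changes are vemurafenib minus vehicle on the log2 scale, tested with limma across all genes with Benjamini-Hochberg adjustment, and a gene counts as higher or lower where the adjusted p is under 0.05. No detection calls were used, so 2 marks of dimness stand in: 6.87, the limit of the dimmest 25% of genes, and 5.50, the median over 341 genes of olfactory receptors, proteins of the nose with little known expression elsewhere. Levels of different probe sets are not set against each other. Of the pigment cell markers MITF, SOX10, S100B and GPNMB lay above the dim limit, while PMEL, MLANA, TYR and TYRP1 lay below it in both groups. The 4 bright ones all rose with vemurafenib, GPNMB by 1.36, S100B by 0.91, MITF by 0.75 and SOX10 by 0.30, and the mean of the 8 measured pigment markers was 8.74 to 8.86 over the vemurafenib arrays, against 8.34 to 8.39 over the vehicle arrays. Of 6 fibroblast markers, DCN, dim with vehicle, rose by 1.46 and LUM by 1.13, the other 4 did not pass, and the mean of the 6 was 7.49 to 7.70 with vemurafenib, against 7.14 to 7.31 with vehicle. The part of these marker shifts in the changes of the ETS genes was not tested. In these RNA samples of whole cultures, a fall in every cell and a loss of the cells that express a gene cannot be told apart.

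Of the 9 measured ETS genes, 6 fell and 2 rose with vemurafenib. The falls were those of ETV5, ETV4, ELK3, ETV1, ELK1 and ETS2, the rises those of ELF1 and ETS1, and ERF did not pass. Over all genes tested 45.5% passed the threshold, 22.2% lower and 23.2% higher, so a call alone was common. Each array was also centred on its median over the 18417 genes, which lowered the median change by 0.06. The calls over all genes were then 3682 higher and 5630 lower, against 4281 higher and 4090 lower without centring. The ETS counts stayed at 2 and 6. A called change of at least 2-fold was seen for 5 of the 9 ETS genes, against 5.69% of all genes. The 3 vemurafenib arrays lay wholly above or below the 3 vehicle arrays for 8 of the 9, against 55.4% of all genes. The median change was -0.41 over the 9 ETS genes and -0.05 over all genes. The listed genes were chosen with earlier results of these data known, so these shares describe the chosen genes and not the ETS family. Among the 18 other ETS genes measured, 33.3% passed the threshold.

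**Figure D1:**
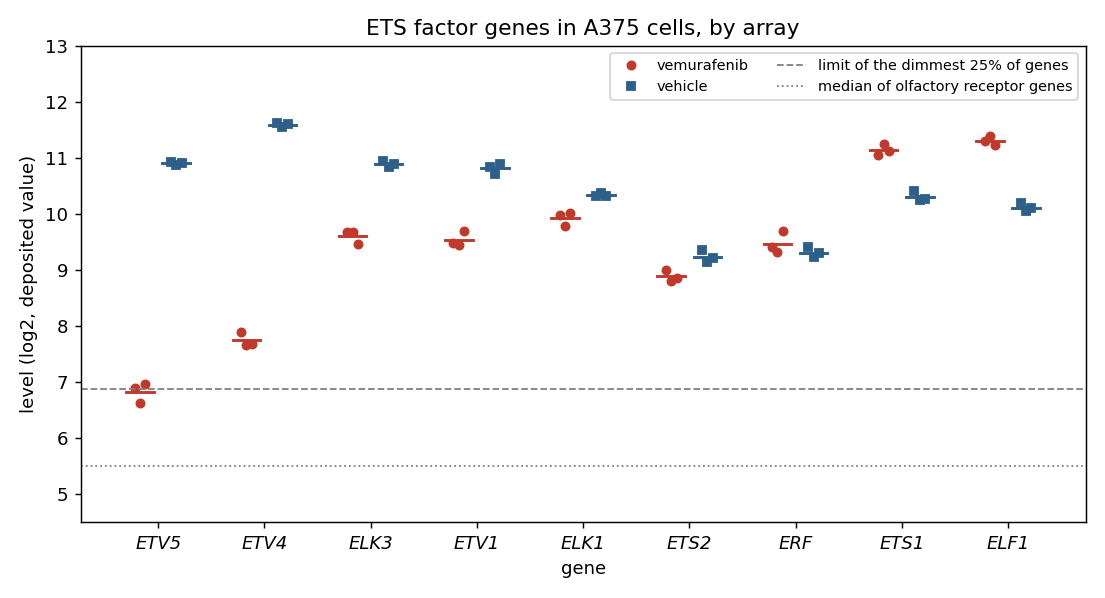
Levels of the 9 ETS genes (deposited log2 values) in each array, vemurafenib as red circles left of vehicle as blue squares, with bars at the group means and grey lines at 6.87 (limit of the dimmest 25% of genes) and 5.50 (olfactory receptor median). The groups lie apart for every gene shown except ERF, and the widest gaps are those of ETV5 and ETV4.

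Within the 9 genes, ETV5 and ETV4 of the PEA3 group had the largest falls, while ETV1, the third of that group, fell about as much as ELK3. ETV5, a PEA3 factor, stood at 6.90, 6.63 and 6.96 in the vemurafenib arrays, against 10.94, 10.87 and 10.92 in the vehicle arrays. Its lowest vehicle array was 3.91 above its highest vemurafenib array, while the arrays within a group spanned 0.33 with vemurafenib and 0.07 with vehicle. The change was -4.08 (95% interval -4.28 to -3.88; limma adjusted p 2.01e-10), or 16.9-fold between array values. The vemurafenib mean of 6.83 ± 0.18 (SD, n = 3) was just under the dim limit of 6.87, so background limits that ratio.

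ETV4, the factor first named PEA3, stood at 7.90, 7.66 and 7.68 with vemurafenib, against 11.62, 11.54 and 11.60 with vehicle. The groups lay 3.64 apart, and both were above the dim limit. The change was -3.84 (95% interval -4.02 to -3.66; limma adjusted p 1.52e-10). The intervals of ETV5 and ETV4 overlapped, and their changes, ranks 2 and 3 among the falls of all genes after DUSP6, differed by 0.24.

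ETV1, which in melanocytic cells has been linked to MITF, fell less. Its levels were 9.49, 9.44 and 9.69 with vemurafenib, against 10.84, 10.71 and 10.90 with vehicle. The change was -1.28 (95% interval -1.47 to -1.09; limma adjusted p 4.18e-07), a 2.42-fold fall. It was rank 251 among the falls of all genes, and its interval did not reach those of ETV4 and ETV5. No test compared the change of one gene with that of another.

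The bases before the ETV1 start site are shown because CIC is known to bind the octamers TGAATGAA and TGAATGGA, and ETV1 is the PEA3 gene that matched the table of promoters. Windows of 300 bases (250 before and 50 after each start) came from RefSeq, build GRCh38.p14, and 7 of the 10 listed genes matched, with 18 windows. The search covered both strands for these octamers and for 1 exact ETS sequence, CCGGAAGT. Other sequences holding the ETS core were not searched. Of the 6 ETV1 windows, 1 held TGAATGGA, whose first base lay 125 bases before the start, and the other 17 windows of the listed genes held none of the 3 motifs. None of 9 windows of DUSP6, SPRY2, SPRY4, SPRED1, SPRED2 and SHC3, listed as CIC targets and also lower with vemurafenib, held any of them. Over all 35116 windows, 2.63% held either octamer and 4.14% held CCGGAAGT. Counted by gene, 3.22% of 27305 genes held either octamer in at least 1 window. A gene with more windows, such as ETV1 with 6, has more places for a match. A match says only that the letters are present. A lack of one says only that these exact letters are absent from these windows. The 250 bases before that ETV1 start (minus strand, chr7:13991426-13991675) are shown with the octamer in capitals. Beside them are the 250 bases before an ELK3 start (plus strand, chr12:96194125-96194374), a window without the 3 motifs. ELK3 fell by nearly the same amount. Whether the octamer bears on the change of any gene was not tested.
ETV1: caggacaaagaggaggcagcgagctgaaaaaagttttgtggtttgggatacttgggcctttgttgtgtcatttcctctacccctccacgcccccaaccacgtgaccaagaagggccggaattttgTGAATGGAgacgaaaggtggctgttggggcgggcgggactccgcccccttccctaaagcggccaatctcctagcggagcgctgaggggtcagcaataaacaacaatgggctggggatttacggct
ELK3: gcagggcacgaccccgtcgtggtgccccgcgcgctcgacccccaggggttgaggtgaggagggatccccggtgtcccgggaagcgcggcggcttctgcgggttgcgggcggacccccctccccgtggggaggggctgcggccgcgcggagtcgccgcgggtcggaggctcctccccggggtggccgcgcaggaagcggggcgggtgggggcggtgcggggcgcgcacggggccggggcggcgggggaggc

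ELK3 and ELK1 are ternary complex factors, which bind DNA beside the serum response factor SRF. ELK3, known as a repressor that ERK turns into an activator, stood at 9.68, 9.68 and 9.47 with vemurafenib, against 10.94, 10.84 and 10.90 with vehicle. Every vemurafenib array lay at least 1.16 below every vehicle array. The change was -1.28 (95% interval -1.46 to -1.11; limma adjusted p 2.27e-07), 0.01 away from that of ETV1.

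ELK1, an activator of early response genes and a well known ERK substrate, stood at 9.97, 9.78 and 10.02 with vemurafenib, against 10.32, 10.38 and 10.32 with vehicle. The groups did not overlap, but the gap of 0.29 was close to the span of 0.24 within the vemurafenib arrays. The change was -0.41 (95% interval -0.59 to -0.24; limma adjusted p 0.00134), which is inside the 5th to 95th percentile of all genes (-0.71 to 0.80). The intervals of ELK1 and ELK3 did not overlap.

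ETS1 and ETS2, the founding pair of the family, are ERK substrates with a pointed domain, and their RNA moved in opposite directions. ETS1 stood at 11.05, 11.24 and 11.12 with vemurafenib, against 10.41, 10.25 and 10.28 with vehicle. Its change of 0.83 (95% interval 0.65 to 1.00; limma adjusted p 6.45e-06) was a 1.77-fold rise with a gap of 0.64 between the groups. ETS2 stood at 9.01, 8.81 and 8.87 with vemurafenib, against 9.37, 9.14 and 9.21 with vehicle. The groups were apart by 0.14, less than the span of 0.22 within the vehicle arrays. The change was -0.35 (95% interval -0.53 to -0.16; limma adjusted p 0.00566), which overlapped the interval of ELK1.

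ELF1, an ETS factor best known from lymphoid and endothelial cells, had the largest rise of the 9. It stood at 11.30, 11.40 and 11.24 with vemurafenib, against 10.19, 10.05 and 10.10 with vehicle. All vemurafenib arrays were at least 1.05 above all vehicle arrays. The change was 1.20 (95% interval 1.03 to 1.36; limma adjusted p 2.39e-07), a 2.29-fold rise and rank 360 among the rises of all genes. The leukocyte markers PTPRC, CD3E, CD14, ITGAM and CD2, 5 of 5 measured, lay below the dim limit in both groups.

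ERF, a repressor of ETS targets that ERK is known to expel from the nucleus, stood at 9.40, 9.32 and 9.70 with vemurafenib, against 9.41, 9.23 and 9.30 with vehicle. The groups overlapped. The change was 0.16 (95% interval -0.06 to 0.38; limma adjusted p 0.213), and without vemurafenib replicate 3, the highest array, it was 0.05. A rise of up to 0.38 or a fall of up to 0.06 thus lies within the interval.

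**Figure D2:**
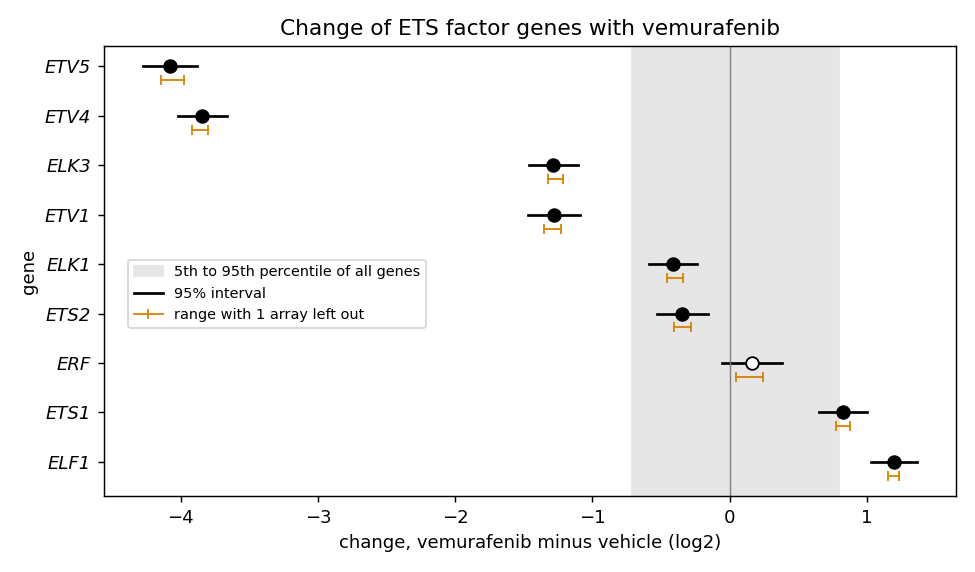
Change of each ETS gene (log2, vemurafenib minus vehicle) with its 95% interval in black and, in orange below it, the range of the change when 1 array was left out. The filled points are genes past the threshold, the open point is ERF, and the grey band is the 5th to 95th percentile of all genes (-0.71 to 0.80). The points of ETV5, ETV4, ELK3, ETV1, ETS1 and ELF1 lie outside the band. That of ETS1 (0.83) lies just outside, and its interval (0.65 to 1.00) reaches into the band.

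Of 18 other measured ETS genes 4 fell and 2 rose, with a median change of -0.16, and the largest absolute change was 0.49. That is 33.3% called, against 45.5% of all genes. After centring on array medians 9 fell and 2 rose, and after renewed quantile normalization 7 fell and 2 rose. Only 11 of the 18 had both group means above the dim limit, and of these 1 fell and 1 rose.

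The clearest of the falls was FLI1, an ETS factor of blood and endothelial cells, at 7.79, 7.58 and 7.66 with vemurafenib, against 8.26, 8.13 and 8.11 with vehicle (-0.49; limma adjusted p 4.21e-04). Its groups did not overlap. Of 6 endothelial markers 3 fell (PECAM1, KDR and CLDN5), and the mean of the 6 was 6.67 to 6.80 over the vemurafenib arrays, against 6.87 to 7.01 over the vehicle arrays. PECAM1, CDH5, VWF and TEK lay below the dim limit in both groups, and their part in the FLI1 result was not tested.

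EHF (-0.27) and ELF5 (-0.25), epithelial factors, lay in the dimmest range in both groups, and SPIB (-0.23) did so with vemurafenib. ELF3, another epithelial factor, rose by 0.40 to 7.24 with vemurafenib, against a dim 6.84 with vehicle. ELF2, a relative of ELF1, rose by 0.37 (9.01 with vemurafenib, 8.64 with vehicle). Without vemurafenib replicate 1 the calls of EHF (limma adjusted p 0.0874) and ELF5 (0.0848) ended. They ended too without vehicle replicate 3 (EHF 0.0738, ELF5 0.0615), and that of ELF5 also without replicate 2 of vemurafenib (0.0888) or vehicle (0.0780). The call of SPIB ended without vemurafenib replicate 2 (limma adjusted p 0.0536). ELK4, the other ternary complex factor, stood at 10.17 with vemurafenib and 10.25 with vehicle (limma adjusted p 0.432), and ETV3, a repressor close to ERF, at 10.09 with vemurafenib and 10.27 with vehicle (limma adjusted p 0.0590).

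**Figure D3:**
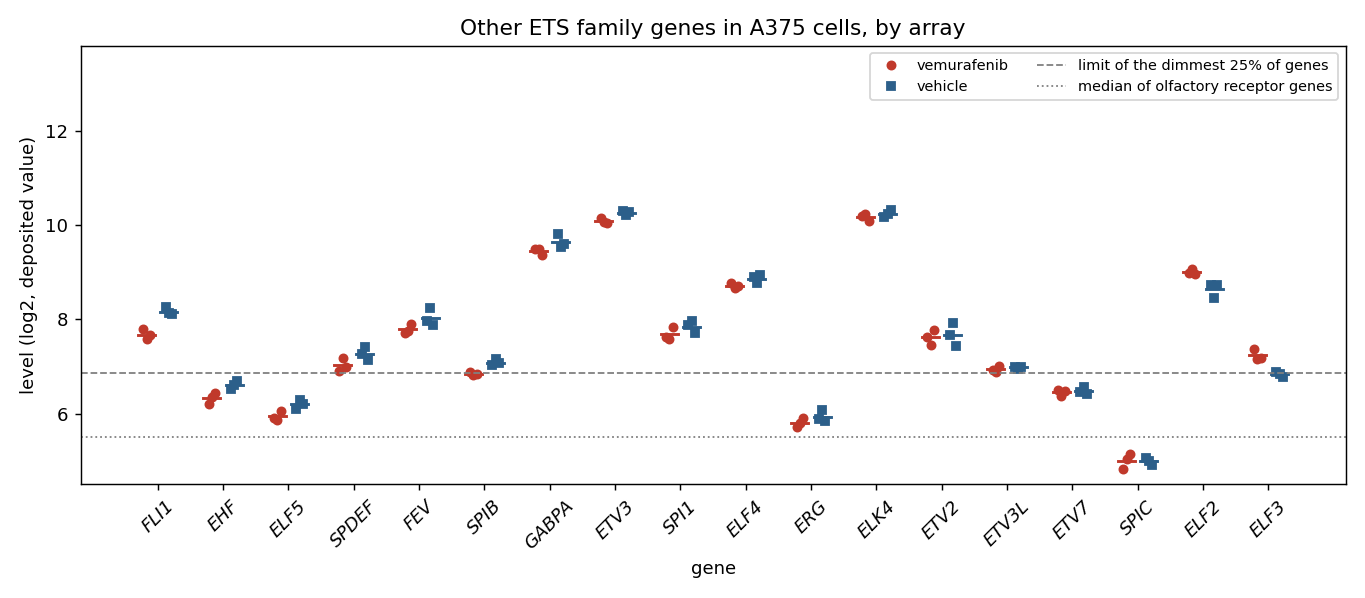
Levels (deposited log2 values) of the 18 other ETS genes in each array, ordered by change, with vemurafenib as red circles left of vehicle as blue squares, bars at the group means and grey lines at 6.87 and 5.50. FLI1 is at the left end of the order (-0.49) and ELF3 at the right end (0.40).

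Of 10 measured regulators of the PEA3 group 3 rose and 3 fell, with a median of -0.03. With 23.2% of all genes higher and 22.2% lower, a split of this kind is common. CIC, the repressor of PEA3 genes, stood at 9.49, 9.39 and 9.67 with vemurafenib, against 9.19, 9.31 and 9.11 with vehicle. The change was 0.31 (SE 0.09; limma adjusted p 0.0135), and it did not pass without vehicle replicate 3 (limma adjusted p 0.0557). ATXN1, also on this list, changed by 0.16 and did not pass (limma adjusted p 0.0800). It passed without the dimmest 50% of genes (limma adjusted p 0.0395) and with array weights (0.0307). The ubiquitin ligase that destroys PEA3 proteins contains COP1, DET1, DDB1 and CUL4A. DET1 rose by 0.46 and CUL4B, a paralogue of CUL4A, by 0.52, while COP1 (-0.01), DDB1 (-0.05) and RBX1 (-0.12) did not pass. CUL4A changed by -0.21 (limma adjusted p 0.0478), a call that ended under 9 of the 16 alternatives, among them leaving out any 1 array other than vehicle replicate 2 (limma adjusted p 0.0582 to 0.156).

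The largest changes in this list were those of the pseudokinases that guide COP1 to substrates. Whether PEA3 proteins are among these substrates was not tested. TRIB2 stood at 8.26, 8.12 and 8.34 with vemurafenib, against 10.06, 9.91 and 9.96 with vehicle, a 3.32-fold fall (limma adjusted p 2.53e-08). TRIB1 fell 1.72-fold, to 9.40 ± 0.12 with vemurafenib against 10.18 ± 0.12 with vehicle (SD, n = 3; limma adjusted p 2.18e-05). Neither gene's groups overlapped.

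All 8 listed CIC targets outside the ETS family fell, with a median of -2.10, against 22.2% of all genes lower. Besides the ERK phosphatase gene DUSP6 (-4.21) and the feedback inhibitors SPRY2 (-3.80) and SPRY4 (-3.75, to a dim 6.69 with vemurafenib), the list held DUSP4, another ERK phosphatase, at -1.72 and SPRED2 and SPRED1, which block RAS signalling, at -1.40 and -0.85. CCND1, the cyclin D1 gene, changed by -2.49. SHC3, an adaptor gene, had the smallest change (-0.25; limma adjusted p 0.0179), which did not pass without vemurafenib replicate 2 (limma adjusted p 0.0552) or vehicle replicate 2 (0.0515). The list was drawn up with earlier results of these data known.

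Of 15 measured genes reported elsewhere as targets of the PEA3 group or ETS1, 5 fell and 4 rose, with a median of -0.10, against 22.2% of all genes lower and 23.2% higher. In both groups 5 of the 15 lay in the dimmest range. The integrin gene ITGB3 stood at 8.70, 8.83 and 8.51 with vemurafenib, against 11.72, 11.82 and 11.98 with vehicle, an 8.95-fold fall (limma adjusted p 1.73e-09). The collagenase gene MMP1 fell by 1.51 on the log2 scale into the dim range, and MET, the receptor of hepatocyte growth factor, fell by 0.81. PTGS2, the cyclooxygenase 2 gene, changed by -0.35 but was dim in both groups. MITF, the pigment cell regulator, rose by 0.75, and the matrix protease genes MMP14, MMP3 and MMP2 rose by 0.67, 0.60 and 0.43, MMP3 against a dim vehicle level of 6.58.

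Among 7 measured partners and targets of the ternary complex factors there were 3 falls and 2 rises, with a median of -0.20, where 45.5% of all genes passed. SRF stood at 10.14, 9.85 and 10.16 with vemurafenib, against 10.43, 10.36 and 10.40 with vehicle (-0.34; limma adjusted p 0.00906). Of the targets, EGR1 fell 2.10-fold and the survival gene MCL1 1.58-fold, while FOS rose 1.47-fold. MRTFB, a coactivator of SRF, rose by 0.37, and IER2 (-0.20) and JUNB (-0.06) did not pass. Of 8 measured genes of the ERK chain, 3 fell and 3 rose, with a median of -0.01, where 45.5% of all genes passed (4 fell and 2 rose after centring). The falls were those of MAP2K1, the MEK1 gene (-0.67), RPS6KA3 (-0.63) and RPS6KA1 (-0.46), kinases downstream of ERK. The rises were those of the scaffold gene KSR1 (0.53), the ERK1 gene MAPK3 (0.50) and MAP2K2 (0.24). ARAF (-0.14) and RPS6KA2 (0.12) did not pass, though ARAF did after centring (limma adjusted p 0.0350). The MAP2K2 call ended after centring (limma adjusted p 0.0617) and without vemurafenib replicate 1 (0.0958) or vehicle replicate 3 (0.114).

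**Figure D4:**
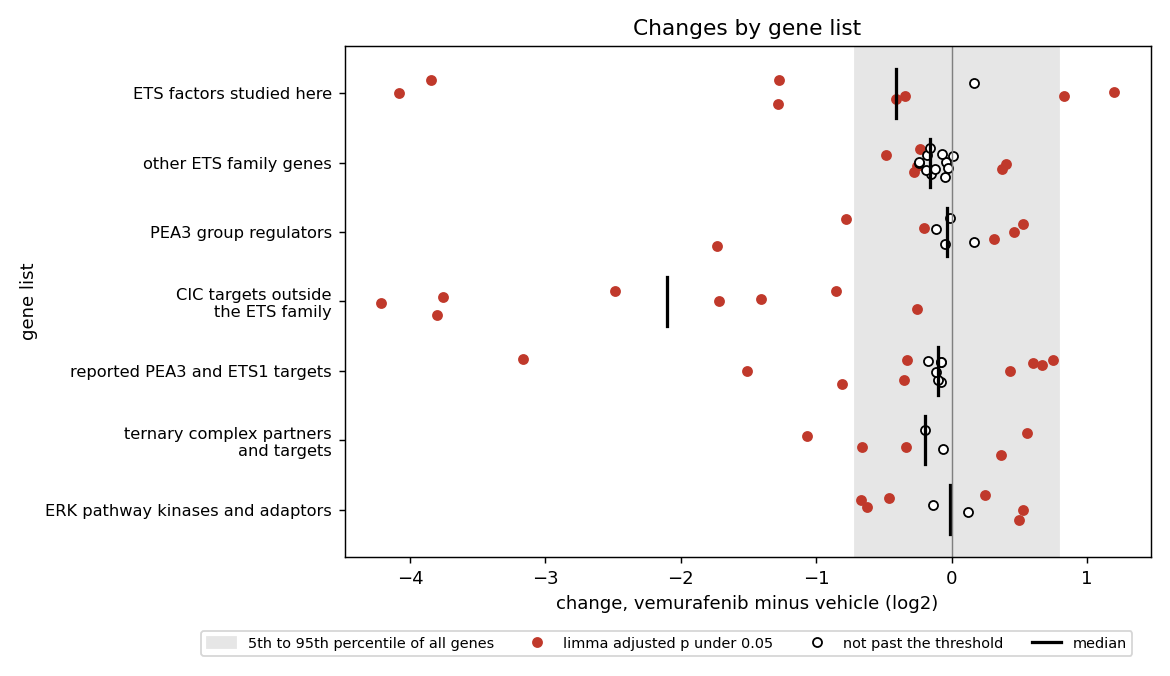
Change (log2, vemurafenib minus vehicle) of each gene in the 9 ETS genes and the other 6 lists, red where the gene passed the threshold and open where not, with black bars at the list medians and a grey band for the 5th to 95th percentile of all genes. The CIC targets all lie below 0 with a median of -2.10, while the other 18 ETS genes lie within 0.49 of 0.

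Over the 6 arrays, the genes whose pattern was most like that of ETV5 by Pearson's r were WDR62 (0.9997), PVR (0.9997) and TFAP2C (0.9996). For ETV4 they were KCNN4 (0.9998), SFRP1 (0.9997) and DTL (0.9997), and for ETV1 they were GPATCH4 (0.9999), YWHAH (0.9992) and ISG20L2 (0.9992). The arrays fall into 2 groups, and 502 genes had an r over 0.99 with ETV5, 558 with ETV4 and 298 with ETV1, so these names describe a shared difference between the groups. Their changes ran from -3.19 (DTL) to -0.66 (ISG20L2).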

How the data were processed

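Per the labels' protocols, total RNA was extracted from A375 cells, the label was biotin, and the arrays were single-colour Affymetrix arrays. The authors deposited log2 values, 1 per probe set and array. Their processing notes name RMA and Partek and give no version. For the genome build and the handling of batches: not given in the sources used here. RMA as usually run compresses large folds. The number of arrays limits the precision. Of 33297 probe sets, 19460 carried 1 gene symbol in the platform annotation of 2016, 1754 several and 12083 none.

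Groups came from the sample titles. The test was limma 3.58.1 (R 4.3.3; lmFit, eBayes, 2-sided) with the group as its single term, no filter on dim genes, and Benjamini-Hochberg adjustment over 18417 genes at 0.05. The other 16 settings were a replicate block, fixed or random (statmod 1.5.0), centring, quantile normalization again, removal of the dimmest 25% or 50% of genes, probe set means, trended robust eBayes, array weights, a stricter threshold (0.01) and each array left out. The scripts were tested on simulated data.

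Vemurafenib and vehicle dishes were paired by letter in the design text, and the labels leave the pairs unnamed. The members and gene lists were chosen with earlier results of these data known. The 9 measured ETS factors were named, with the 4 largest called changes per direction of each list, any member of lists of 11 or fewer, and the 3 genes most like each PEA3 gene. ELK4 and ETV3 were named besides, after their values were seen.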

Additional observations from a re-analysis of the deposited data

How the results depend on the processing

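The counts of ETS genes (6 lower, 2 higher) and the call and direction of each of the 9 were the same under all 16 alternatives. Over them ETV5 ran from -4.14 to -3.98, ETV4 from -3.92 to -3.79, ELK3 from -1.35 to -1.21, ETV1 from -1.35 to -1.23, ELK1 from -0.47 to -0.34, ETS2 from -0.41 to -0.28 (limma adjusted p up to 0.0322), ERF from 0.05 to 0.24, ETS1 from 0.75 to 0.88 and ELF1 from 1.14 to 1.24. The blocks, removal of dim genes, probe set means, trended eBayes and the stricter threshold left each of the 9 changes as it was. Direction could not differ under these, only the adjusted p or the call. Each of the 9 had 1 probe set, so probe set means altered none of their values. Of the 18 other ETS genes 6 passed, but 11 did so after centring on array medians or with array weights, 3 without the dimmest 50% of genes and 3 at a threshold of 0.01. Only 5 of the 18 were tested without the dimmest 50%. The count of reported PEA3 and ETS1 targets was 9, and 5 without the dimmest 50% of genes, where 6 were tested. The cause of the rises to 11 was not tested. With the replicate number as a block (replicate block), 8 ETS genes passed, as without it, and 7606 genes in all, against 8371. Deviations of same-numbered arrays from their group means correlated at 0.14, -0.18 and -0.25 for numbers 1, 2 and 3. For vemurafenib replicate 1, that 0.14 was the highest of its correlations with the vehicle arrays. Vemurafenib replicates 2 and 3 correlated best with vehicle replicates 3 (0.22) and 2 (0.28), so the numbers were not taken as pairs. The lettered pairs of the design were not fitted under any setting, since the labels leave them unnamed. Without detection calls, values near 6.87 or below were not shown to be above background.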

Other observations

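Of the 8 ETS genes past the threshold, 7 had vemurafenib replicate 2 as the array farthest from the vehicle mean in the direction of the change, and ELK3 had vemurafenib replicate 3. Among all 8371 genes past the threshold, vemurafenib replicate 2 was the farthest for 39.6% and vemurafenib replicate 3 for 36.0%. Vehicle replicate 2 was the lowest vehicle array for 8 of the 9 ETS genes, all but ELK1, against 44.7% of all genes. The vemurafenib arrays spanned a wider range than the vehicle arrays for 8 of the 9 ETS genes, all but ETS2, against 51.1% of all genes. These patterns were noticed in the data, rest on 3 arrays a group and were not tested.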
